A study of Mus musculus with 4 samples.

Results

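Transcripts of myelin and of myelin-forming oligodendrocytes were followed in RNA-seq libraries of microglia, the resident macrophages of the brain. The listed genes are Mbp, Mobp, Mal, Mog, Mag, Cnp, Bcas1 and Enpp6, taken by gene symbol from the deposited expression table of 21044 genes. Of these 8 genes 7 had a row in that table and are described here, and Mal was not analysed here. The microglia came from the corpus callosum, a large white matter tract, at postnatal day 7. The libraries comprised 2 from mice named Lag3cKO-Cx3, in which the floxed gene of the inhibitory immune receptor LAG3 is deleted conditionally (cKO), and 2 from Lag3 fl/fl mice with the genotype label wt (WT). Both groups thus carry the floxed allele, and the driver of the deletion is given only through the Cx3 in the strain name. The labels leave it unsaid whether 1 animal or several went into a library. P-values therefore rest on the spread between these libraries alone, which in WT may be technical. The 2 cKO libraries differed in sex-linked transcripts, as given below.

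Oligodendrocytes wrap axons in myelin, and the corpus callosum of the mouse begins to myelinate in the early postnatal period. Precursors first become newly formed, premyelinating cells, which are known to express Enpp6 and Bcas1, and then mature cells that make the myelin proteins in bulk. Mbp encodes myelin basic protein, which holds the cytoplasmic faces of compact myelin together. Mobp encodes another basic protein of compact myelin, Mog an immunoglobulin-like protein of the outermost myelin surface, and Mag an adhesion molecule of the innermost wrap facing the axon. Cnp encodes a phosphodiesterase of the non-compacted, cytoplasm-filled parts of myelin. Bcas1 encodes a protein of early myelinating oligodendrocytes, and Enpp6 a choline-specific glycerophosphodiesterase. Microglia of this age are known to engulf oligodendrocyte lineage cells and myelin. In a bulk library of isolated cells, RNA of oligodendrocytes carried along, RNA of engulfed material and transcription by the microglia cannot be told apart, and neither can fewer cells of a type and less RNA per cell.

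The libraries held 14645187 to 16770162 counts, and 12787 genes were detected in cKO replicate 2 against 14840 to 15899 in each of the other 3 libraries. Lag3 had 595 and 257 counts in the cKO libraries and 6064 and 10007 in the WT libraries. Its fitted log2 fold change of -4.35 ± 0.52 (SE) did not pass edgeR's test over all genes (adjusted p = 0.9997). The microglial markers, all 12 of them detected in each library, summed to 31090 and 29075 CPM (counts scaled to library size with TMM factors) in cKO replicates 1 and 2 and to 29772 and 32831 CPM in WT replicates 1 and 2. Single markers differed more than their sum. Of the 12, 3 were higher in both cKO libraries than in both WT libraries and 3 were lower, against 15.8% and 20.0% of all genes tested. Cx3cr1 had 3404 and 3034 CPM in cKO and 6443 and 6554 CPM in WT. Tmem119 had 773.2 and 1172 CPM in cKO and 380.9 and 540.9 CPM in WT. The cKO replicate 2 library stood apart. Across genes, its log2(CPM + 1) values had correlations of 0.899 to 0.909 with the other 3 libraries, which reached 0.950 to 0.967 with one another. It also had 0 counts of the Y-linked gene Ddx3y, which had 1795 counts in cKO replicate 1 and 1485 and 1306 in the WT libraries. The X-linked gene Xist had 117 and 4355 counts in cKO replicates 1 and 2 and 0 in both WT libraries. The 2 cKO libraries thus differ from each other in sex-linked transcripts, and the groups are not matched for them.

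Promoter windows were read from RefSeq (GRCm38.p6), from 250 bases before to 50 bases after each start, for 5 of the 7 genes. The windows of Mog and Enpp6 are shown because the cKO and WT values of these genes did not overlap. For Mog, the counting interval of WT replicate 1 does overlap those of both cKO libraries. The windows of Mag and Cnp are shown because they hold, with Mog, the short motif of MYRF. MYRF is the transcription factor that switches on myelin genes. Capitals mark exact matches on either strand, read 5′ to 3′ along the gene.
Mog, chr17:37023349-37023648, minus strand: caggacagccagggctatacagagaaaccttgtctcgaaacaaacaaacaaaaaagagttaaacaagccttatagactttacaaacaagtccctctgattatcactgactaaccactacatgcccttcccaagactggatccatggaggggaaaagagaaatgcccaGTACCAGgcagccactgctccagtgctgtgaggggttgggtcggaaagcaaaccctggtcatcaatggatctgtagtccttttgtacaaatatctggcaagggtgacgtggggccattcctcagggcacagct
Mag, chr7:30914814-30915113, minus strand: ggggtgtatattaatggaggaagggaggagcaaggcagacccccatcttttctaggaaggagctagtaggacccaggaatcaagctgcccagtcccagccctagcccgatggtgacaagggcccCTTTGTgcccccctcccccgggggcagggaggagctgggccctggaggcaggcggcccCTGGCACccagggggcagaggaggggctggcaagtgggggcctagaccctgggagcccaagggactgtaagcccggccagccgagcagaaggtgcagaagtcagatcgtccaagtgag
Cnp, chr11:100574689-100574988, plus strand: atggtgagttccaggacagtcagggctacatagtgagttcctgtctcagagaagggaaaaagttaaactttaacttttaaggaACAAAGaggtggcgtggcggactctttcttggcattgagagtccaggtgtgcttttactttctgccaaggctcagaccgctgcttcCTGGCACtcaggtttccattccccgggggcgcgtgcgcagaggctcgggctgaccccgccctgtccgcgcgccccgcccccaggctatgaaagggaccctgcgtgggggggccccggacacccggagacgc
Enpp6, chr8:46986637-46986936, plus strand: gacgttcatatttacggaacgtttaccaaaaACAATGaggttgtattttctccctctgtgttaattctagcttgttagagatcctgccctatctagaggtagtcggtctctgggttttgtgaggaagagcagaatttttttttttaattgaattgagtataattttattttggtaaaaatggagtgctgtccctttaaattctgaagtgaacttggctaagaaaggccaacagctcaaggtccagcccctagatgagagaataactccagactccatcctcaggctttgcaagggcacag
The MYRF motif was searched as CTGGCAC and CTGGTAC, which 5.01% and 2.24% of 32851 promoter windows of this length hold. It stood at position -83 in Mog (as GTACCAG, the reverse complement of CTGGTAC), at -68 in Mag and at -81 in Cnp, counted from 0 at the start base to the first base of the match. Of the other 2 windows of Mag, 1 overlaps this one and holds the same match, and the other, at chr7:30914272-30914571, holds no match to the motifs searched. The SOX motif was searched as ACAAAG and ACAATG, held by 18.7% and 12.6% of all windows, and stood in the Mag, Cnp and Enpp6 windows shown and in that of Mobp. The E-box CAGCTG and the TATA box TATAAA, held by 16.3% and 13.6% of all windows, were in 0 of the 7 windows of these genes. A match is a stretch of letters and was not tested as a binding site.

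The 7 genes lie on 7 chromosomes, and their deposited positions are those of GENCODE M21 on GRCm38. Mbp (ENSMUSG00000041607) spans chromosome 18, 82475146 to 82585637 on the plus strand. Of its 16 annotated transcripts 4 start near the first of these positions and 12 start at 82554470 or later, at least 79.1 kb downstream of all 4. The upstream transcripts include those known as Golli, which are also made outside myelinating cells, and the deposited count covers the whole gene. Mobp lies on chromosome 9, 120149707 to 120181484 (plus), Mog on chromosome 17, 37010743 to 37023398 (minus), and Mag on chromosome 7, 30899176 to 30914873 (minus). Cnp lies on chromosome 11, 100574904 to 100591729 (plus), Bcas1 on chromosome 2, 170346991 to 170427845 (minus), and Enpp6 on chromosome 8, 46986887 to 47096762 (plus). Of these genes 3 share exon bases with a neighbour, Cnp 154 bases with Dnajc7 and Bcas1 440 and 34 bases with antisense genes, all on the opposite strand, and Mobp 79 bases with Gm38642 on the same strand. The sources used here do not say whether reads were counted by strand, so the assignment of reads in these stretches is uncertain. Mog, Mag and Enpp6 share no exon base with another annotated gene, and neither does Mbp.

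All 7 genes together were a very small part of each library. They summed to 228.3 and 118.9 CPM in cKO replicates 1 and 2 and to 123.0 and 110.2 CPM in WT replicates 1 and 2, which is 0.0229% and 0.0122% of all counts in the cKO libraries and 0.0122% and 0.0108% in the WT libraries. The sum was high in cKO replicate 1 only. The groups averaged 173.6 ± 77.3 CPM in cKO and 116.6 ± 9.04 CPM in WT (SD, n = 2 each). The log2 ratio of these means was 0.57, and 0.028 without cKO replicate 1. Mbp and Cnp made up 70.1% to 84.5% of the sum in each library.

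**Figure D1:**
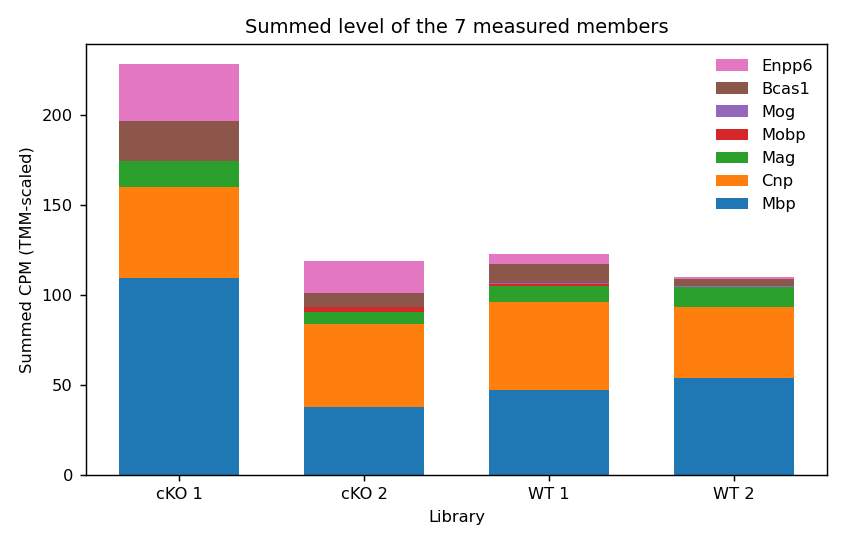
Stacked bars of the TMM-scaled CPM of the 7 genes in each library, cKO libraries on the left. The bar of cKO replicate 1 reaches 228.3 CPM, the other 3 lie between 110.2 and 123.0 CPM, and the Enpp6 share is larger in both cKO bars.

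By the authors' scaling to transcript length, Cnp was the most abundant of them and Mbp the next. In FPKM, the authors' unit of fragments scaled to transcript length and library size, Cnp averaged 13.4 ± 0.569 in cKO and 11.9 ± 1.85 in WT, and Mbp 8.83 ± 5.98 in cKO and 5.92 ± 0.491 in WT (SD, n = 2 each). These 2 differed by less than the SD of Mbp in cKO and by more than either SD in WT. In cKO, Bcas1 with 3.91 ± 2.74, Enpp6 with 3.89 ± 1.44 and Mag with 2.67 ± 1.38 FPKM followed, closer to each other than their SDs. In WT, Mag had 2.45 ± 0.336 FPKM and Bcas1 1.87 ± 1.20 FPKM, which also differed by less than the larger SD. Enpp6 came after them in WT with 0.546 ± 0.507 FPKM, above Mog by less than its SD. Mobp and Mog were at or near 0, with 0.209 ± 0.296 and 0 FPKM in cKO and 0.101 ± 0.143 and 0.327 ± 0.148 FPKM in WT. The length behind the Mbp value is 8404 bases, close to the 8469 merged exon bases of its upstream and downstream transcripts together, whereas the longest of the transcripts that start downstream has 2070 exon bases. The FPKM of Mbp thus divides its count by the longer length. Divided by the shorter length, the same count would place Mbp above Cnp in both groups. The order of these 2 genes therefore rests on the length used.

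Among all genes detected in a library, these 2 genes ranked above the median in each library. The FPKM percentile of Cnp was 81.0 and 73.9 in cKO replicates 1 and 2 and 79.1 and 78.1 in WT replicates 1 and 2. That of Mbp was 80.2 and 51.6 in cKO and 63.5 and 69.4 in WT. Enpp6 reached 62.5 and 41.4 in cKO and 30.3 and 15.2 in WT, and Mog 12.7 and 25.7 in WT. The number of detected genes differs between libraries, so these ranks describe each library on its own.

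Enpp6, the marker of newly formed oligodendrocytes, was the tested gene of the 7 whose groups did not overlap. It had 528 and 270 counts in the cKO libraries and 92 and 18 in the WT libraries, or 31.4 and 18.0 CPM in cKO against 5.87 and 1.23 CPM in WT. Both cKO libraries lay above both WT libraries, and their exact Poisson intervals, which cover counting error only, did not overlap, the lower cKO interval beginning at 15.9 CPM and the upper WT interval ending at 7.20 CPM. The means were 24.7 ± 9.50 CPM in cKO and 3.55 ± 3.28 CPM in WT (SD, n = 2 each), a ratio of 6.97. The fitted log2 fold change was 2.80 ± 0.93 (SE), and it stayed between 2.07 and 4.30 when each library was left out. It did not pass edgeR's quasi-likelihood test over all genes (unadjusted p = 0.0327, Benjamini-Hochberg adjusted p = 0.9997) or DESeq2 (adjusted p = 0.204). In the alternatives that kept all libraries, the log2 fold change of Enpp6 ran from 1.67 (limma on log2(FPKM + 1)) to 3.12 (replicate block). Inside the groups the level differed 1.75-fold between the cKO replicates and 4.78-fold between the WT replicates. An exact permutation test of 2 libraries against 2 cannot give a two-sided p under 0.333.

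Bcas1, the other early gene, did not separate the groups. It had 370 and 109 counts in the cKO libraries and 163 and 58 in the WT libraries, or 22.0 and 7.27 CPM in cKO and 10.4 and 3.96 CPM in WT. In each group replicate 1 was the higher library, by 3.03-fold in cKO and by 2.63-fold in WT, and the cKO replicate 2 value lay between the WT values. The fitted log2 fold change was 1.03 ± 0.88 (SE, edgeR adjusted p = 0.9997) and was 0.0097 without cKO replicate 1. Counted against Mbp in the same library, Enpp6 had 28.7% and 47.7% of the Mbp level in cKO replicates 1 and 2 and 12.4% and 2.28% in WT replicates 1 and 2, a ratio formed after the values were seen. The proportion of both transcripts thus differed between all 4 libraries.

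Mbp, the gene with the most reads in 2 of the 4 libraries, followed 1 library. It had 1841 and 566 counts in the cKO libraries and 743 and 789 in the WT libraries. This gave 109.6 and 37.7 CPM in cKO and 47.4 and 53.9 CPM in WT, so that both WT values lay between the cKO values. The cKO replicates differed 2.91-fold, and WT replicate 1 had 0.880 times the level of WT replicate 2. The log2 fold change was 0.54 ± 0.55 (SE, edgeR adjusted p = 0.9997), 1.11 without cKO replicate 2 and -0.43 without cKO replicate 1.

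Mag had the same order of libraries as Mbp at a lower level. Its counts were 249 and 101 in cKO and 143 and 164 in WT, or 14.8 and 6.73 CPM in cKO and 9.12 and 11.2 CPM in WT. Again both WT libraries lay between the cKO libraries. The fitted log2 fold change was 0.086 ± 0.67 (SE, edgeR adjusted p = 0.9997), and it turned to -0.60 without cKO replicate 1, to -0.070 without WT replicate 1 and to -0.014 with a replicate block.

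Cnp varied least. It had 845 and 695 counts in the cKO libraries and 760 and 575 in the WT libraries, or 50.3 and 46.3 CPM in cKO and 48.5 and 39.2 CPM in WT. The groups overlapped, and the cKO replicates differed only 1.09-fold while Mbp differed 2.91-fold and Bcas1 3.03-fold between the same libraries. The log2 fold change was 0.14 ± 0.29 (SE, edgeR adjusted p = 0.9997) and turned to -0.0086 without WT replicate 2.

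**Figure D2:**
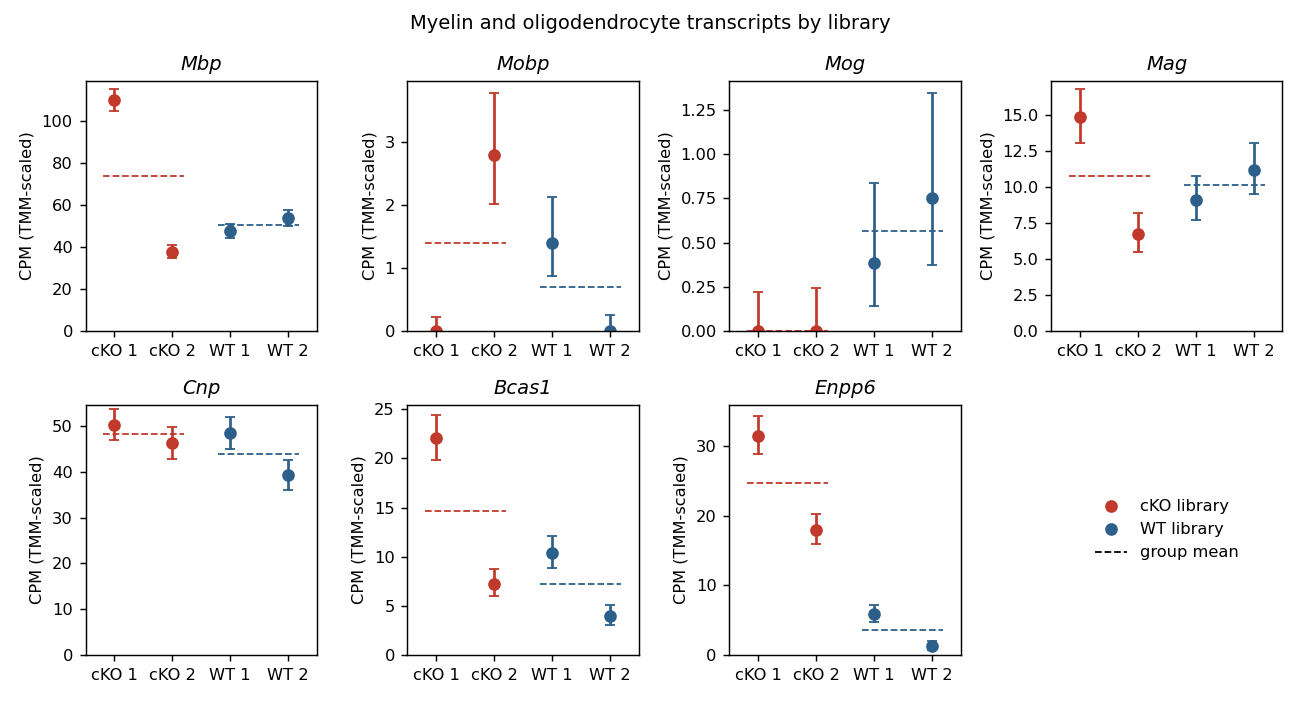
Level of each gene in each library in TMM-scaled CPM, with cKO libraries in red on the left and WT libraries in blue. Error bars are exact 95% Poisson intervals of the count and dashed lines are group means. In the Enpp6 panel both cKO libraries lie above both WT libraries, in the Mog panel both lie below, and in the other 5 panels the groups overlap.

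Mobp was detected in 1 library of each group. It had 0 and 42 counts in cKO replicates 1 and 2 and 22 and 0 counts in WT replicates 1 and 2. The Poisson intervals of 42 and 22 counts begin at 30.3 and 13.8 counts, above the upper bound of 3.69 counts of the interval of a 0. The libraries with reads were 1 of each genotype. The fitted log2 fold change of 0.98 ± 2.94 (SE, edgeR adjusted p = 0.9997) moved between -6.48 and 7.43 when libraries were left out.

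Mog was the one gene of the 7 with no read in either cKO library. It had 0 and 0 counts in cKO and 6 and 11 counts in WT, which is 0.383 and 0.751 CPM in the WT libraries. The Poisson intervals of the cKO libraries reach 0.220 and 0.246 CPM and overlap that of WT replicate 1, which begins at 0.140 CPM. The interval of WT replicate 2 begins at 0.375 CPM, above both. Its counts were below the filter of the main edgeR test. In the 5 alternatives that fitted Mog it was not called, with adjusted p-values of 0.403 to 0.902 by edgeR and limma in 4 of them and none given by DESeq2. A gene with no count in either cKO library and a count in both WT libraries was not rare, with 3.2% of 18459 genes. The difference in Mog rests on the 6 and 11 reads of the WT libraries.

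No member passed the test across all genes. Of 13086 genes tested 0.0% passed edgeR and 4.65% had an unadjusted p under 0.05. Of the 6 members tested 0 passed, and 1, Enpp6, had an unadjusted p under 0.05. DESeq2 called 0.387% of 13448 genes and 0 members. Both cKO libraries lay above both WT libraries for 15.8% of the genes tested and for 1 of the 6 members, and below for 20.0% and for 0 members. The median absolute log2 difference between the cKO replicates was 1.34 over the 6 members tested and 0.77 over all genes tested, and between the WT replicates 0.84 over the members and 0.37 over all genes. In WT the members divide, as Mbp, Mag and Cnp lie below the median of all genes and Bcas1, Enpp6 and Mobp above it, and the difference was not tested. The median log2 fold change was 0.76 over these members and -0.027 over all genes tested.

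**Figure D3:**
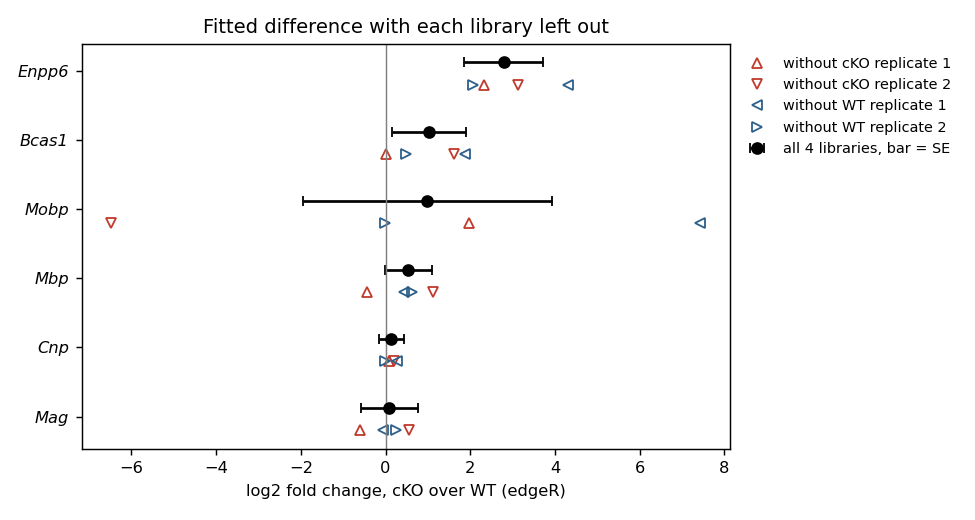
Fitted log2 fold change of the 6 tested genes, cKO over WT. Black points use all 4 libraries with the standard error as a bar, and open triangles leave out 1 library (red for cKO, blue for WT). The Enpp6 values stay between 2.07 and 4.30 and those of Bcas1 above 0, while Mbp, Mag, Cnp and Mobp have values on both sides of 0.

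The authors' deposited tables each compare 1 cKO library with 1 WT library, so that each library stands in 2 tables. For cKO replicate 1 over WT replicate 1, the authors' deposited table called 36.1% of its genes (20.3% higher and 15.8% lower) and 5 of 7 members. For cKO replicate 1 over WT replicate 2, the authors' deposited table called 34.8% (17.2% higher and 17.6% lower) and 4 of 6 members. For cKO replicate 2, the authors' deposited tables called 46.8% of genes over WT replicate 1 (18.1% higher and 28.7% lower) and 48.8% over WT replicate 2 (17.1% higher and 31.7% lower), with 3 of 7 members in each. Calls between 2 single libraries carry no replicate spread.

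Enpp6 and Mog were the members with 1 direction in all 4 comparisons. A higher Enpp6 level was called in each of the authors' deposited tables, as 1.62% of genes were, with log2 fold changes of 2.44 and 4.71 for cKO replicate 1 over WT replicates 1 and 2 and of 1.67 and 3.94 for cKO replicate 2. A lower Mog level was called in each of the authors' deposited tables, as 3.75% of genes were, and with an adjusted p under 0.001 in 2 of them. Mbp and Bcas1 were called higher in both of the authors' deposited tables with cKO replicate 1 and in neither with cKO replicate 2. The authors' deposited log2 fold changes of Mbp were 1.23 and 1.06 for cKO replicate 1 over WT replicates 1 and 2, and -0.28 and -0.45 for cKO replicate 2. Mobp was called lower in 1 and higher in 2 of the authors' deposited tables, and 11.9% of genes were called in opposite directions in this way. Mag and Cnp were called in none of the authors' deposited tables. A call there did not rest on the authors' adjusted p alone, and each called member had a log2 fold change beyond 1 in size. Mag for cKO replicate 1 over WT replicate 1 (log2 fold change 0.72, authors' adjusted p = 6.9e-07) was not called. This authors' adjusted p is below the authors' own unadjusted p of 1.3e-06, which a Benjamini-Hochberg adjustment cannot give. The authors' adjusted p-values are thus quoted as deposited, and how they were made is not known. For cKO replicate 2 over WT replicate 2, neither Mbp (-0.45, 4.6e-09) nor Bcas1 (0.94, 9.2e-06) was called.

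Other genes of mature oligodendrocytes were few and low, and the 6 of 15 listed that could be tested were all fitted higher in cKO, as 48.2% of all genes tested were, with 0 passing edgeR. Ugt8a, the enzyme that makes the myelin lipid galactosylceramide, had 3.45 and 15.9 CPM in cKO and 0 and 2.73 CPM in WT. Cldn11, the tight junction protein of myelin, had 4.41 and 3.33 CPM in cKO and 2.17 and 0.273 CPM in WT. Both cKO libraries lay above both WT libraries for each of these 2 genes. The same held for 3 of the 6 tested genes of the list and for 15.8% of all genes tested. Gjc3, a connexin gene, had 4.70 and 0 CPM in cKO and 1.47 and 0.887 CPM in WT and overlapped. The list without its members summed to 41.4 and 55.7 CPM in cKO and 12.4 and 15.6 CPM in WT, and the median of its log2 fold changes was 1.63. Of its 9 genes with counts, 6 were at 0 in cKO replicate 2 (Aspa, Fa2h, Gjc3, Gpr37, Plekhh1 and Tspan2), although the list's sum was highest there.

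Earlier stages of the lineage did not show one direction. Of 10 tested genes of newly formed oligodendrocytes outside the members, 4 were fitted higher and 6 lower in cKO, the median log2 fold change being -0.089 (-4.11 without cKO replicate 1), and 0 passed edgeR. Gpr17, a receptor gene of premyelinating cells, had 15.0 and 8.13 CPM in cKO and 5.87 and 3.69 CPM in WT, without overlap (log2 fold change 1.27 ± 0.74, SE, edgeR adjusted p = 0.9997). Itpr2, a calcium channel gene of the endoplasmic reticulum, had 71.8 and 42.3 CPM in cKO and 56.2 and 60.1 CPM in WT. Tcf7l2, a transcription factor of the WNT pathway, had 25.3 and 29.7 CPM in cKO and 40.9 and 20.2 CPM in WT. Both of these overlapped between the groups. Fyn, a kinase that promotes myelination, had 17.7 and 43.3 CPM in cKO and 14.9 and 17.7 CPM in WT, so that cKO replicate 1 and WT replicate 2 were nearly equal. Of 6 tested precursor genes 1 was fitted higher and 5 lower, with a median of -0.21 (-4.21 without cKO replicate 1) and 0 passing edgeR. Ptprz1, a receptor phosphatase gene, had 30.3 and 9.60 CPM in cKO and 8.74 and 14.5 CPM in WT. The proteoglycan genes Cspg4 and Vcan had 8.75 and 2.60 CPM and 5.24 and 0 CPM in cKO, and 4.53 and 6.96 CPM and 2.17 and 4.16 CPM in WT. Matn4, a matrix protein gene, had 1.31 and 0 CPM in cKO and 1.21 and 4.85 CPM in WT. In all 4 of these genes the groups overlapped.

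Of the transcription factors that drive oligodendrocyte genes, Sox10 and Myrf were nearly absent. Sox10, which marks the whole lineage, was listed at 0 FPKM in 3 libraries and at 0.0503 FPKM in cKO replicate 2. Myrf had 5 counts in WT replicate 2 and 0 in the other 3 libraries. Olig2 had 0 and 18 counts in cKO and 0 and 17 in WT. These 3 genes were chosen after their values were seen. Olig1 had 12.5 and 5.07 CPM in cKO and 13.1 and 12.8 CPM in WT, with both cKO libraries below both WT libraries (log2 fold change -0.56 ± 0.69, SE, edgeR adjusted p = 0.9997). Sox8 had 5.24 and 4.80 CPM in cKO and 2.36 and 2.39 CPM in WT (log2 fold change 1.08 ± 0.95, SE, edgeR adjusted p = 0.9997). Nkx2-2 had 0 and 2.93 CPM in cKO and 0.128 and 0 CPM in WT. Zeb2, which microglia also express, had 178.2 and 272.5 CPM in cKO and 199.5 and 184.2 CPM in WT, and the groups overlapped. Of the 4 tested factors 3 were fitted higher, the median log2 fold change being 0.14, and 0 passed edgeR. That median was 0.75 without cKO replicate 1, -0.082 without cKO replicate 2 and -0.14 without WT replicate 1.

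By distance between centred log2(CPM + 1) profiles over the 4 libraries, Mbp and Mag were the closest pair of the 5 members at a mean of 5 CPM or more, 0.49 apart, and Enpp6 stood farthest from the rest, 1.88 to 2.99 from each. Among the other lineage genes, Mbp was nearest to Ptprz1 (0.41), Mag to Itpr2 (0.24), Cnp to Zeb2 (0.53), Bcas1 to Gpr17 (0.69) and Enpp6 to Cldn11 (1.45). Among 8923 genes tested at that level, Lrrc3, Atxn7l3 and Garnl3 were nearest to the mean profile of the 5 members, at 0.12, 0.19 and 0.26. These distances describe 4 libraries and nothing more.

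Markers of other cells were present too, and they differed between libraries in their own ways. The 13 astrocyte markers summed to 261.2 and 547.2 CPM in cKO and 239.0 and 191.0 CPM in WT. Of their tested genes 11 of 11 were fitted higher in cKO, as 48.2% of all genes tested were, with 0 passing edgeR. Their median log2 fold change was 1.44, or 0.76 without cKO replicate 2. Of the 13, Gjb6, S100b and Slc4a4 were at 0 in cKO replicate 2. The neuronal markers summed to 26.3 and 71.7 CPM in cKO and 15.2 and 30.1 CPM in WT, the endothelial ones to 21.9 and 22.5 CPM in cKO and 16.4 and 16.9 CPM in WT, and those of neutrophils to 16.9 and 131.3 CPM in cKO and 17.9 and 7.30 CPM in WT. Of the 6 endothelial markers 4 (Cldn5, Esam, Flt1 and Kdr) were at 0 in cKO replicate 2. The summed astrocyte markers, like Enpp6, were thus higher in both cKO libraries than in both WT libraries. The same held for the endothelial sum and for the sums of the mature and newly formed oligodendrocyte lists. The newly formed list summed to 139.1 and 142.3 CPM in cKO and to 137.1 and 113.8 CPM in WT. The highest library of each of these sums was cKO replicate 2, while Enpp6 was highest in cKO replicate 1. Pecam1 alone gave 10.5 and 21.6 CPM of the endothelial sum in cKO and 9.44 and 6.01 CPM in WT. The median log2 fold change of the endothelial list was -0.19. Itpr2, Tcf7l2 and Fyn held most of the newly formed sum in each library. In that list Cnksr3, Neu4, Prom1, Rras2 and Zfp488 were at 0 in cKO replicate 2. The part of other cells in the Enpp6 values was not tested. Over the marker and lineage lists together edgeR called 0 genes. An unadjusted edgeR p under 0.05 was found for 7 list genes, and for 4.65% of all 13086 genes tested. Among the 7 were the astrocyte genes Slc1a3 and Sox9, the microglial genes Cx3cr1 and Tmem119 and the neutrophil genes Ngp and Cxcr2. DESeq2 called 2 list genes, the neutrophil gene Ngp, higher in cKO, and the microglial gene Cx3cr1, lower in cKO. Over all 13448 genes it called 0.387%. Of the Schwann cell markers 1 could be tested, Egr2, which myeloid cells also express and which had 138.8 and 87.9 CPM in cKO and 108.4 and 139.2 CPM in WT.

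**Figure D4:**
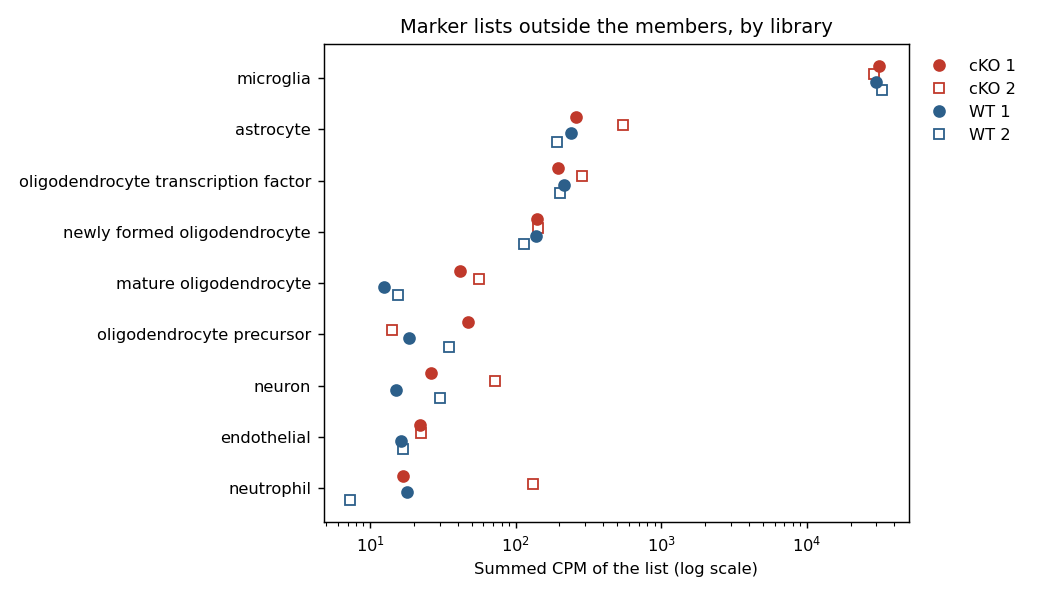
Summed TMM-scaled CPM of marker lists outside the members in each library, on a log axis, with cKO in red and WT in blue (circles replicate 1, squares replicate 2). Microglial markers lie between 29075 and 32831 CPM in all 4 libraries, the mature oligodendrocyte list lies at 41.4 and 55.7 CPM in cKO and 12.4 and 15.6 CPM in WT, and cKO replicate 2 is highest for astrocyte, neuronal and neutrophil markers.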

How the data were processed

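Per the file headers, 1 table holds the authors' FPKM of 21044 genes. Per the file headers, the other 4 set 1 cKO against 1 WT library, with read counts and the authors' log2 fold change, p-value and adjusted p-value. TopHat2 2.0.12 with Bowtie2 2.2.3, HTSeq 0.6.0 and mm9 are listed by the submitters' processing notes. The test behind the tables, the strand and the annotation are not given in the sources used here. The deposited positions matched GRCm38, with 92.1% of 21008 shared genes at the same place as in GENCODE M21.

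Counts were joined for 18459 genes, with 0 differing between tables. Cells missing from both tables of a library, 4315 of 73836, were recovered from FPKM, and 100.0% were whole within 1e-06. The 2 replicates of a group were different libraries, since their counts gave a chi-square per degree of freedom of 107.5 in cKO and 27.8 in WT. The comparison used edgeR 4.0.16 (R 4.3.3) with TMM, filterByExpr at a minimum count of 10 and glmQLFTest. Genes were called below 0.05 after Benjamini-Hochberg adjustment. Standard errors were derived from the F statistic. The depth of 14645187 to 16770162 counts per library makes 3 counts worth 0.179 to 0.205 CPM. Alternatives were DESeq2 1.42.0, limma 3.58.1 on log2(FPKM + a pseudocount of 0.1, 0.5 or 1), other scalings and filters, a replicate block and leaving out each library. Scripts were tested on simulated data. The members and lists were chosen with earlier results of these data known. Named genes are the members, Lag3, the 4 most abundant non-members of each lineage list and the nearest genes by profile, and all others were chosen after their values were seen. These include Ddx3y, Xist, Tmem119, Egr2 and the genes named for being at 0 in a library, for a low unadjusted p or for a DESeq2 call. A gene that this rule names is not reported here.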

Additional observations from a re-analysis of the deposited data

How the results depend on the processing

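The members called numbered 0 in all 14 alternatives run, and Mog could be fitted in 5 of them. Over all genes 0 were called by edgeR with other scalings and filters, by limma and with the replicate block, and 52 by DESeq2. When each library was left out 0 to 910 genes were called, the highest without cKO replicate 1. Each of these fits leaves 1 library in a group and takes its spread from the other group. This alone thus does not account for the highest number. The cKO library left in that fit was replicate 2, which stood apart, and its part in the number was not tested. The labels name no shared origin for libraries of 1 number, and across genes their deviations had a correlation of -0.023, so the block is no pairing. The block turned Mag to -0.014. With each library left out the log2 fold change ran from -0.43 to 1.11 for Mbp, -0.60 to 0.54 for Mag, -6.48 to 7.43 for Mobp and -0.0086 to 0.28 for Cnp, each on both sides of 0, and from 0.0097 to 1.87 for Bcas1. Mobp was at -0.0092 without WT replicate 2. The log2 ratio of the summed level ran from 0.028 to 0.97, and was 1.22 without Mbp and Cnp, an alternative added after the data were seen. List medians ran from 1.43 to 1.63 for mature oligodendrocytes, -4.11 to 0.51 for newly formed ones, -4.21 to 0.30 for precursors, -0.14 to 0.75 for transcription factors, 0.76 to 1.66 for astrocytes, -3.29 to 2.13 for neurons, -6.52 to 0.76 for endothelium, -0.22 to 2.67 for neutrophils (3.65 with no filter) and -0.041 to 0.12 for microglia. Each of these medians covers the list genes that passed the filter of that fit, so the genes can differ between fits. The narrow range of the mature list is thus no measure of its stability. Its tested genes Gjc3, Tspan2 and Fa2h had 0 counts in cKO replicate 2. The largest falls of the list medians came without cKO replicate 1, where zeros of cKO replicate 2 stand alone. At an adjusted p under 0.001, 1 member (Enpp6) instead of 2 was called in all 4 of the authors' deposited tables.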
